A study of Mus musculus with 36 samples.

Results

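Cytochrome P450 genes were described across 7 groups of mouse tissue from a model of translocation renal cell carcinoma. Members were all protein-coding genes with a symbol made of Cyp, a family number, subfamily letters and a gene number. Of 94 members, 62 had a mean of at least 1 CPM (read counts scaled to the library total) in a group. These 62 were 34 of 49 genes of family 2, 15 of 17 of family 4, 8 of 16 of families 7 to 27 and 5 of 12 of the other families (1, 3, 39 and 46). Cyp51, whose symbol carries no gene number, is not a member. Genes whose symbol ends in a letter, such as Cyp3a41a, are not members either. Sums and ranks of P450 genes below cover the members only. The nearest members below the limit were Cyp1a1, Cyp2d40 and Cyp3a25, at highest group means of 0.960, 0.899 and 0.893 CPM. The nearest above it were Cyp2d10, Cyp2c40 and Cyp4x1, at 1.07, 1.16 and 1.25 CPM.

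Kidney tumours (11 libraries, 6 mice), retro-orbital tumours (4 libraries, 4 mice), brain tumours (3 libraries, 3 mice) and non-transformed kidneys (4 libraries, 4 mice) came from the same 6 mice of genotype Sglt2-Cre; ASPSCR1-TFE3 LSL/+. Control kidneys (6 libraries) came from 3 Sglt2-Cre mice. Sglt2 is a glucose transporter of the proximal tubule, and in these mice its promoter drives the Cre that removes a stop cassette in front of the ASPSCR1-TFE3 fusion. Dysmorphic fetal kidneys (5 fetuses) were Pax8-Cre; ASPSCR1-TFE3 LSL/+, where Cre is driven by the promoter of Pax8, a factor of the embryonic kidney epithelium. Control fetal kidneys came from 3 fetuses labelled Pax8-Cre, while the series' text gives Pax8-Cre or ASPSCR1-TFE3 LSL/+. Ages and strains were not given in the sources used here. All tissue was fixed in formalin and embedded in paraffin.

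Cytochromes P450 are haem enzymes of the endoplasmic reticulum or the mitochondrion that insert an oxygen atom into lipids, steroids, vitamins and foreign compounds, with electrons from P450 oxidoreductase or ferredoxin. Families 1 to 3 mostly handle foreign compounds, and several family 2 enzymes also make epoxides of arachidonic acid. Family 4 hydroxylates fatty acids and eicosanoids at the end of the chain, and families 7 to 27 act on sterols, steroids, vitamin D and retinoic acid. In rodent kidney the proximal tubule is rich in P450 enzymes of families 2 and 4, and several of them differ between the sexes.

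Libraries held 80205573 to 121415057 counts. The values below are CPM scaled with TMM factors, after libraries of the same animal and group were summed. By Y-linked transcripts, mouse 1 and mouse 5 of the fusion mice were male, the other fusion mice and all control mice were female, and dysmorphic fetuses 1, 2 and 3 and control fetus 1 were male. Kidney and retro-orbital tumours of mouse 5 also held Xist, at 6.05 and 3.80 CPM, beside a Y-linked sum of 321 and 465 CPM. The non-transformed kidney of mouse 5 held 0.105 CPM of Xist. In the kidney tumours of mouse 2 the Y-linked sum was 9.54 CPM, against 0.798 in its brain and 0.674 in its retro-orbital tumour. Several members share sequence, so counts could be split between them: the share of a gene's 50-base exon stretches found in another gene was 38.01% for Cyp2a4, 37.0% for Cyp2a5, 29.8% for Cyp4a10, 20.6% for Cyp4a31, 17.4% for Cyp4f16 and 43.3% to 60.3% for Cyp2c40, Cyp2c67, Cyp2c68 and Cyp2c69. The strand setting of the counting was not given, and 9.76% of the Cyp4f18 exons and 13.5% of the Cyp2f2 exons lie antisense to another gene. Of the Cyp4v3 exons, 8.22% overlap a gene on the same strand.

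The promoters of some members named below are shown as the 250 bases before the RefSeq start site (build GRCm38.p6, 5′ to 3′ on the gene's strand). TFE3 belongs to the basic helix-loop-helix factors that bind E-box and M-box motifs. Capitals mark an E-box (CACGTG) in Cyp4v3, an M-box (TCATGTG) that lies on the other strand in Cyp4f18, a TATA box (TATAAA) in Cyp2a5 and a motif of the factor HNF4 (CAAAGTCCA) in Cyp2c68. Cyp4f16 is shown because it moved with Cyp4v3 and Cyp4f18, and its window held none of the 4 motifs. Cyp4f17, which rose with these genes in kidney tumours, is not shown and had no match among the windows searched. Cyp2c68 did not pass the main test in any comparison below.
Cyp4v3 (chr8:45333164-45333413, minus strand): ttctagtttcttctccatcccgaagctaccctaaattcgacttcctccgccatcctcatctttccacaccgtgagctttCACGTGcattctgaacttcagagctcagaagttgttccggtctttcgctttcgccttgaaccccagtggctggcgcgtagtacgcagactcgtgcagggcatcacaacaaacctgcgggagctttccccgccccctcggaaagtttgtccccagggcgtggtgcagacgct
Cyp4f18 (chr8:72009627-72009876, minus strand): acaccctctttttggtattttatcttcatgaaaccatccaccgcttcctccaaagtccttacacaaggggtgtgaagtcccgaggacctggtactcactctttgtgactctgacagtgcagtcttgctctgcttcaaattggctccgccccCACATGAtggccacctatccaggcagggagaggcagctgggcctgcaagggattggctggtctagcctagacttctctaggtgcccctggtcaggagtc
Cyp4f16 (chr17:32536307-32536556, plus strand): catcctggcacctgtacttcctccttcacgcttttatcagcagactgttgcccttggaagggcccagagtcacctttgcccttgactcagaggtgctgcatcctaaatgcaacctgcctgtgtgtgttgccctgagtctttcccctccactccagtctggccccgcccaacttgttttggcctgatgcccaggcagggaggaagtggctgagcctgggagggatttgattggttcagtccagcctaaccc
Cyp2a5 (chr7:26835089-26835338, plus strand): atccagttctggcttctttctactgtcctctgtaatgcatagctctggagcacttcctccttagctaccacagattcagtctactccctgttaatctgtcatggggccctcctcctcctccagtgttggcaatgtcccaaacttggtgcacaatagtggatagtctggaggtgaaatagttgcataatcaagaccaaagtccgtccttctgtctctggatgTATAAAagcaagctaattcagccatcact
Cyp2c68 (chr19:39741102-39741351, minus strand): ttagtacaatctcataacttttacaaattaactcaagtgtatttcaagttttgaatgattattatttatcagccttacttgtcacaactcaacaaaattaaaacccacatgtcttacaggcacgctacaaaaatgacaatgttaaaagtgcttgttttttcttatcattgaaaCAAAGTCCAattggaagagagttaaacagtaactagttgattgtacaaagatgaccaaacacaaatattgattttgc
Windows were found for 49 of the 62 genes, 56 windows in all, and were searched on both strands from 250 bases before to 50 bases after the start. An E-box was in 2 of the 56 windows and in 7.15% of the 32851 windows of all genes, and an M-box was in 3 and in 3.77%. The other E-box window was that of Cyp2j6, whose 43.8 to 75.5 CPM in kidney tumours held the 53.7 to 61.6 CPM of controls, and the other M-box windows were both of Cyp4f40, at 0.00992 to 0.817 CPM in kidney tumours and 0.00444 to 0.0324 CPM in controls. The HNF4 motif was in 7 of the 56 windows and in 0.475% of all windows, among them those of Cyp2c40, Cyp2c65, Cyp2c67, Cyp2c68, Cyp2c69 and Cyp2c70, which all lie on chromosome 19. The TATA box was in 20 of the 56 windows and in 13.6% of all windows. A match is a description of these letters and was not tested for binding.

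In control kidneys the P450 genes together gave 4981 to 5690 CPM, of which family 2 gave a mean of 2936 ± 226 CPM (SD, n = 3) and family 4 1966 ± 274. Per kilobase of exon, Cyp4a10 and Cyp2j5 were the highest members there at 404 and 363 CPM per kb, followed by Cyp2d26 at 244 and Cyp4a31 at 213. Cyp4a10, Cyp4a14 and Cyp4a31 encode fatty acid hydroxylases, and Cyp2j5 an enzyme of arachidonic acid. Cyp4a10 stood at 738, 956 and 861 CPM in control mice 1 to 3, and Cyp2j5 at 921, 845 and 787 CPM, so Cyp4a10 was the lower in mouse 1 and the higher in mice 2 and 3 in CPM. Cyp2e1, which oxidises ethanol and small solvents, was at 304, 498 and 263 CPM. Cyp24a1, which degrades vitamin D hormone, was at 241, 214 and 38.4 CPM. Cyp39a1, an oxysterol hydroxylase, ranged from 30.5 to 35.6 CPM in control kidneys, 18.8 to 50.1 in kidney tumours, 21.8 to 37.7 in non-transformed kidneys, 24.96 to 50.4 in retro-orbital tumours, 13.8 to 39.2 in brain tumours, 25.1 to 37.2 in dysmorphic and 24.0 to 36.9 in control fetal kidneys. Cyp1b1, which oxidises oestrogens and polycyclic hydrocarbons, ranged from 15.7 to 24.6 CPM in control kidneys, 4.64 to 28.6 in kidney tumours, 21.5 to 31.7 in non-transformed kidneys, 0.555 to 9.42 in retro-orbital tumours, 0.190 to 3.08 in brain tumours, 1.19 to 15.9 in dysmorphic and 8.22 to 12.4 in control fetal kidneys, and was below every control kidney in each brain and retro-orbital tumour. Cyp4a14 was at 269, 412 and 374 CPM in control mice 1 to 3 and 0.774 to 299 CPM in kidney tumours. Cyp4b1, a fatty acid and xenobiotic hydroxylase, was at 141, 183 and 86.0 and 2.31 to 276 CPM. Of the 62 genes, 23 had a mean of at least 1 CPM in all 7 groups and 12 in a single group. A gene of these 12 is described because of that group, so its difference between that group and another was in part fixed by the choice and is given as a description. They were Cyp2c38, Cyp2c39, Cyp2d10 and Cyp3a11 in non-transformed kidneys, Cyp2c40, Cyp2c55, Cyp2c66, Cyp2c67 and Cyp2c70 in control fetal kidneys, Cyp2j12 and Cyp4x1 in brain tumours and Cyp4f39 in dysmorphic fetal kidneys. The highest group mean was in non-transformed kidneys for 20 genes, in control fetal kidneys for 12, in control kidneys for 8, in brain tumours for 8, in kidney tumours for 5, in retro-orbital tumours for 5 and in dysmorphic fetal kidneys for 4.

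P450 genes in kidney tumours summed to 3110 ± 1580 CPM (SD, n = 6), from 1258 to 5597. Cyp4a10 was at 198, 8.42, 9.91, 429, 621 and 3.61 CPM in the kidney tumours of mice 1 to 6. Cyp2j5 was at 327, 19.3, 27.9, 564, 939 and 38.7 CPM in the same order, and Cyp2d26 at 54.4, 3.34, 3.48, 289, 83.3 and 1.65 CPM. Mice 2, 3 and 6 were the lowest and mice 4 and 5 the highest for all 3 genes, and every tumour value was below every control except Cyp2j5 in mouse 5. The sum of 10 proximal tubule markers (Slc34a1, Lrp2, Cubn and others) was 2571, 646, 641, 8106, 8561 and 645 CPM in mice 1 to 6, against 11695 to 13148 CPM in controls. Fewer tubule cells and less RNA per cell cannot be told apart in such bulk tissue, and the part of tubule content in these levels was not tested. Cyp2e1 followed another order, at 321 CPM in mouse 2 but 2.83 and 1.80 CPM in mice 3 and 6. Of the 38 genes with a mean of at least 1 CPM in kidney tumours, 22 had a highest mouse at least 10 times the lowest. The same held for 0 of 40 genes in control kidneys (3 mice), 5 of 47 in non-transformed kidneys (4 mice), 16 of 35 in retro-orbital tumours (4 mice), 13 of 34 in brain tumours (3 mice), 15 of 35 in dysmorphic (5 fetuses) and 18 of 41 in control fetal kidneys (3 fetuses). The number of animals sets how wide such a range can be, and the difference between groups was not tested.

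**Figure D1:**
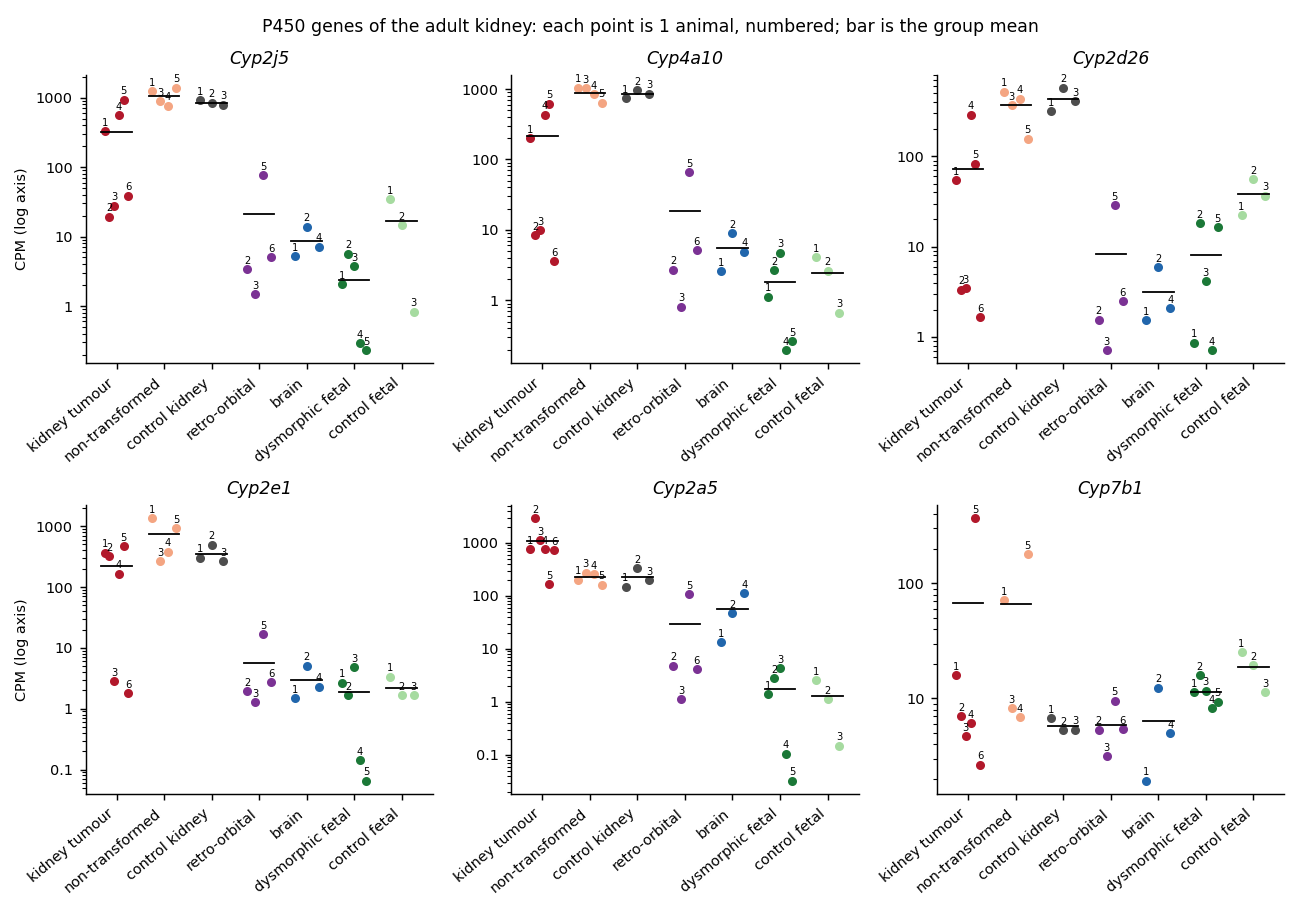
Levels of 6 P450 genes in every animal (CPM, log axis) in the 7 groups; numbers give the animal within its model or group and bars the group mean. Kidney tumours of mice 2, 3 and 6 sit near 8.42, 9.91 and 3.61 CPM of Cyp4a10, control kidneys at 738 to 956 CPM.

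Against control kidneys, 4 family 4 genes rose in kidney tumours and Cyp3a11 fell. These 5 of 56 described genes tested passed an adjusted p of 0.05 in edgeR's quasi-likelihood test over all genes, where 19% of all 23578 genes passed (12.5% higher, 6.51% lower). Of all 94 members, 70 passed the filter on low counts. Cyp4v3, a fatty acid hydroxylase whose human counterpart is mutated in a crystalline retinal dystrophy, was at 27.3, 59.9, 73.2, 12.8, 11.5 and 54.4 CPM in the tumours of mice 1 to 6 and 8.85, 8.33 and 8.26 CPM in controls, which was a log2 rise of 2.26 ± 0.65 (SE, adjusted p = 0.0394). Cyp4f16, of the subfamily that hydroxylates leukotrienes and other eicosanoids, ranged from 25.8 to 65.8 CPM in tumours and from 13.5 to 15.9 CPM in controls, which was a log2 rise of 1.54 ± 0.31 (SE, adjusted p = 0.0121). Every tumour mouse lay above every control mouse for both genes, and the same held for Cyp4f17 and Cyp4f18. Cyp4f17 ranged from 16.6 to 52.5 against 9.74 to 12.2 CPM, with a log2 fold change of 1.41 ± 0.38 (SE, adjusted p = 0.0323). Cyp4f18, a leukotriene hydroxylase of neutrophils, ranged from 1.81 to 5.57 against 0.856 to 0.942 CPM, with a log2 fold change of 1.91 ± 0.43 (SE, adjusted p = 0.0170). Cyp4f18 had a mean of at least 1 CPM in 3 groups, kidney tumours among them and control kidneys not. Its rise was thus in part favoured by the choice of genes and is given as a description. For Cyp4v3, mice 2, 3 and 6 were highest and mice 4 and 5 lowest, the opposite order to the tubule markers.

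The fall of Cyp3a11, the main drug-metabolising Cyp3a enzyme of liver, was at very low levels: 0.0420 to 0.186 CPM (8 to 36 counts per mouse) in tumours against 0.196 to 0.469 CPM in controls, with a log2 value of -2.07 ± 0.53 (SE, adjusted p = 0.0267) for tumours over controls. Cyp1a1, a member under 1 CPM that is induced by the aryl hydrocarbon receptor, also fell, with a log2 fold change of -1.67 ± 0.46 (SE, adjusted p = 0.0337). Leukocyte markers summed to 253 to 740.1 CPM in tumours and 176 to 188 CPM in controls. Their part in the Cyp4f18 level was not tested. The median log2 fold change was -0.54 over the 56 described genes and 0.05 over all genes tested. Over the alternatives the first lay from -0.32 without the filter to -1.82 with the random block, and was -1.34 with sex as a term and -1.005 without fusion mouse 5. Ranges of the mice did not overlap for 4 described genes higher in tumours and 12 lower, where 15.2% and 14.7% of all genes did not overlap in those directions.

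**Figure D2:**
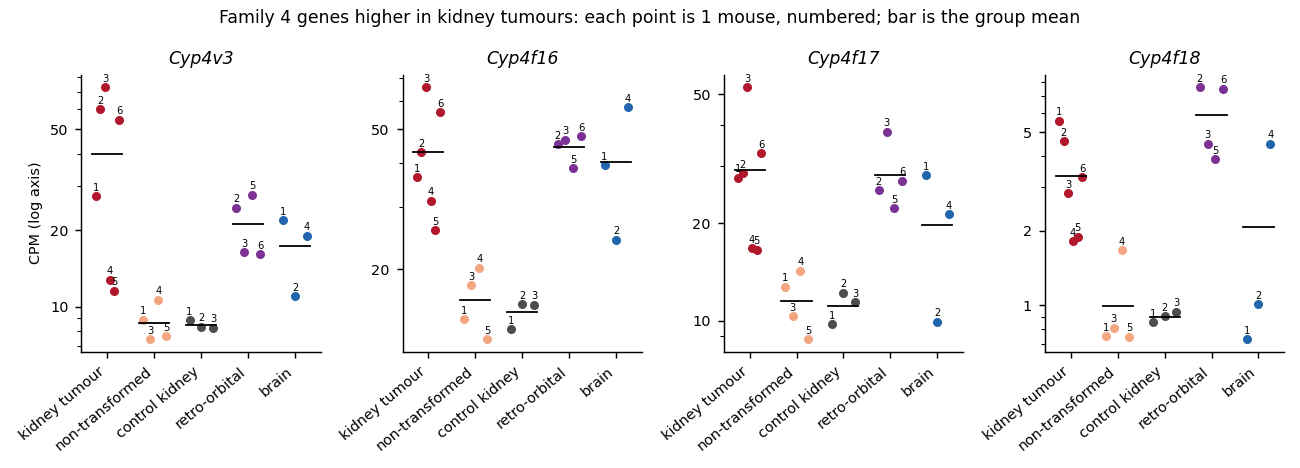
Levels of Cyp4v3, Cyp4f16, Cyp4f17 and Cyp4f18 (CPM, log axis) in each mouse of the 5 adult groups; points are mice, numbered, and bars are group means. All 6 kidney tumour points lie above the 3 control points in each panel, and for Cyp4v3 the tumours of mice 4 and 5 (12.8 and 11.5 CPM) lie closest to them.

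The lower levels of Cyp4a10, Cyp2j5 and Cyp2d26 did not pass edgeR's test and passed under another fit. The log2 fold change against controls was -2.01 ± 1.33 (SE, adjusted p = 0.299) for Cyp4a10, -1.41 ± 1.08 (SE, adjusted p = 0.369) for Cyp2j5 and -2.58 ± 1.34 (SE, adjusted p = 0.194) for Cyp2d26. Cyp2c23, an arachidonic acid epoxygenase of kidney, was at 0.793 to 48.2 CPM in tumours and 107 to 128 CPM in controls, without overlap, at -2.90 ± 1.19 (SE, adjusted p = 0.112). Cyp24a1 was at 0.496 to 67.3 CPM in tumours, at -3.31 ± 1.39 (SE, adjusted p = 0.119), and Cyp2e1 at -0.68 ± 1.29 (SE, adjusted p = 0.733). Limma with the libraries kept apart and the mouse as a random block called Cyp4a10 lower at -4.57 (adjusted p = 0.00718), Cyp2j5 at -2.94 (adjusted p = 0.0144) and Cyp2d26 at -5.07 (adjusted p = 0.00190). It also called Cyp2c23 at -4.83 (adjusted p = 3.36e-04) and Cyp24a1 at -5.26 (adjusted p = 0.00115), and DESeq2 called these last genes too (adjusted p = 0.0350 and 0.0330). The wide spread among tumour mice stands in these standard errors, and a p above the threshold does not show equal levels. Cyp20a1, an orphan P450, was at 49.9 to 91.6 CPM in tumours and 44.3 to 50.9 CPM in controls, at 0.57 ± 0.21 (SE, adjusted p = 0.0814). Cyp4f14, another Cyp4f gene, did not pass either, at 0.114 to 2.22 against 3.10 to 7.28 CPM and -2.47 ± 0.81 (SE, adjusted p = 0.0618). The random block called Cyp20a1 higher (adjusted p = 0.00874) and Cyp4f14 lower (0.00835).

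None of the described genes was called when control mouse 1, control mouse 2 or control mouse 3 was left out, and the share of all genes called was then 8.55%, 4.78% and 4.96%. The adjusted p of Cyp4v3 reached 0.137 with a mouse left out, and its log2 fold change lay from 1.94 to 2.59 over all alternatives. Without fusion mouse 2, Cyp4f17, Cyp4v3 and Cyp3a11 were not called, without fusion mouse 3 Cyp4v3 and Cyp3a11, and without fusion mouse 6 Cyp4f17 and Cyp4v3, with 14.5%, 13.3% and 14.9% of all genes called. The joint fit lost Cyp3a11 (adjusted p = 0.161). DESeq2 called 17 described genes (8 higher, 9 lower) and 30% of all genes. Limma with the libraries kept apart and the mouse as a random block called 27 (5 higher, 22 lower) and 35.3% of all genes, and the fit with sex as a term 8 (5 higher, 3 lower) and 25.9%. All 3 called the 4 family 4 genes. Without fusion mouse 4 or fusion mouse 5, 10 of 55 described genes were called, beside 20.9% and 25.1% of all genes.

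**Figure D3:**
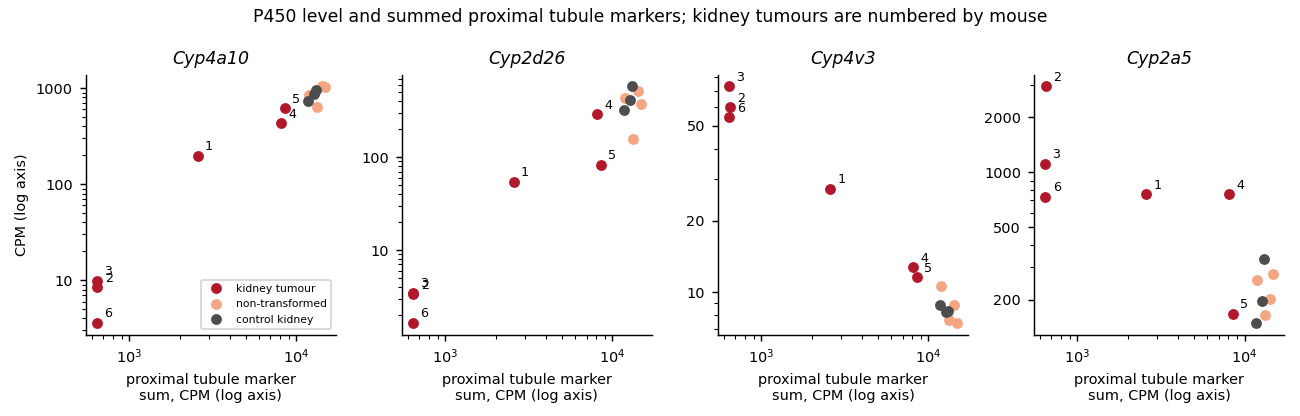
Level of 4 P450 genes against the summed proximal tubule markers (both CPM, log axes) for kidney tumours, non-transformed kidneys and control kidneys; each point is 1 mouse and tumour points carry the mouse number. Cyp4a10 and Cyp2d26 are high where the marker sum is high, Cyp4v3 is highest at the low sums of mice 2, 3 and 6 (641 to 646 CPM), and Cyp2a5 is highest in mouse 2.

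Cyp2a5, which hydroxylates coumarin and is induced in injured liver, was the highest P450 gene of the kidney tumours per kilobase, at 521 CPM per kb against 136 for Cyp2j5, the next. It stood at 756, 2958, 1113, 757, 167 and 733 CPM in mice 1 to 6 and at 149, 335 and 196 CPM in controls, so 5 of 6 mice were above every control and mouse 5 was not. The log2 fold change of 2.27 ± 0.77 (SE, adjusted p = 0.0678) did not pass, and it passed without fusion mouse 5, with DESeq2 (adjusted p = 0.00789) and with sex as a term (adjusted p = 0.0309). Tumours of the same mouse differed for this gene: the libraries of mouse 2 held 241 and 5302 CPM, those of mouse 3 2085 and 131 CPM, and those of mouse 1 756 and 749.5 CPM, when scaled over libraries. Its near relative Cyp2a4, a steroid hydroxylase, was at 47.4, 8.60, 4.61, 57.2, 880.1 and 1.43 CPM in mice 1 to 6, highest in the mouse with the lowest Cyp2a5. Cyp4a10 also differed within mouse 1, at 389.9 and 16.6 CPM, while the libraries of mice 2, 3 and 6 held 4.92 and 11.4, 14.7 and 4.93 and 5.73 and 1.37 CPM.

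The kidney tumours were next compared with non-transformed kidneys of the same mice. Against them, 8 of 55 described genes were called in kidney tumours (5 higher, 3 lower; 67 members passed the filter), where 17.1% of all genes were called (12.1% higher, 5.02% lower), and the median log2 fold change was -1.41 (-2.17 with the random block) against -0.02 over all genes. The described genes include Cyp2c38, Cyp2c39, Cyp2d10 and Cyp3a11, which reached a mean of 1 CPM only in non-transformed kidneys. This median is therefore no support for a difference. This comparison and the one with control kidneys share the tumour mice. Cyp4v3 rose by 2.16 ± 0.55 (SE, adjusted p = 0.0245) on the log2 scale, Cyp4f16 by 1.36 ± 0.27 (SE, adjusted p = 0.00953), Cyp4f17 by 1.30 ± 0.33 (SE, adjusted p = 0.0249) and Cyp4f18 by 1.71 ± 0.42 (SE, adjusted p = 0.0225), with no overlap of the mice, where 11.4% of all genes were higher and 6.15% lower without overlap; the described genes gave 4 and 8. The 8 include Cyp2c69, which reached a mean of 1 CPM only in control and non-transformed kidneys, so its gap was in part fixed by the choice of genes. In non-transformed kidneys of mice 1, 3, 4 and 5, Cyp4v3 was at 8.88, 7.45, 10.6 and 7.65 CPM. Cyp2a5 was at 202, 276, 257 and 164 CPM there and higher in tumours by 2.24 ± 0.64 (SE, adjusted p = 0.0392), although the tumour of mouse 5 lay within the non-transformed range.

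The 3 genes called lower were at low levels. Cyp3a11 and Cyp2c38 reached a mean of 1 CPM only in non-transformed kidneys and are described because of that group, so their calls against it are no support, and 6 of the 8 called genes are left without them. The 6 include Cyp4f18, which reached 1 CPM in 3 groups, kidney tumours among them, so its call is given as a description. Cyp3a11 was at 0.0751, 0.317, 0.424 and 8.02 CPM in non-transformed kidneys, with a log2 fold change of -4.85 ± 1.15 (SE, adjusted p = 0.0194). Without fusion mouse 5 the log2 fold change was -1.84 (adjusted p = 0.101). Cyp4f39, which hydroxylates the very long fatty acids of the skin barrier, was at 0.0198 to 0.155 CPM in tumours and 0.113 to 0.341 CPM in non-transformed kidneys, at -1.99 ± 0.55 (SE, adjusted p = 0.0345). Cyp2c38 was at 0.0198 to 0.456 and 0.455 to 3.76 CPM, at -3.04 ± 0.94 (SE, adjusted p = 0.0497). Cyp4a10 and Cyp2j5 did not pass in edgeR, at -2.11 ± 1.20 (SE, adjusted p = 0.241) and -1.79 ± 0.98 (SE, adjusted p = 0.224), and limma with the mouse as a random block called both lower, at -4.40 (adjusted p = 0.00889) and -3.06 (adjusted p = 0.0138). With the mouse as a replicate block over the 4 mice that gave both tissues, 1 described gene was called, Cyp2j13, and 4.12% of all genes, and the same mice without the block also gave 1, Cyp4f16, and 8.04%. The log2 fold changes of Cyp4f16 and Cyp4v3 in the blocked fit were 1.18 (adjusted p = 0.0658) and 1.36 (adjusted p = 0.215). Without fusion mouse 1, Cyp3a11 was the 1 described gene called, and without fusion mouse 3 it was Cyp4f16, beside 6.4% and 5.59% of all genes. Cyp2c38 was lost whichever mouse was left out, Cyp4f39 was lost without mouse 1, 2, 3 or 5 and Cyp2a5 without mouse 1, 3, 4 or 6. Limma with the mouse as a random block called 27 (4 higher, 23 lower) and 30% of all genes, and lost Cyp2a5 (adjusted p = 0.260). The 23 include Cyp2c38, Cyp2d10 and Cyp3a11, which are described because of non-transformed kidneys. With sex as a term 7 were called beside 15% of all genes, and Cyp3a11 (adjusted p = 0.0802), Cyp2a5 (0.0587) and Cyp2c38 (0.0730) were no longer past the threshold. DESeq2 called 11 beside 27.4% of all genes and gave no adjusted p for Cyp3a11. The joint fit lost Cyp2a5 (0.141) and Cyp4f39 (0.101).

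Between non-transformed and control kidneys no described gene was called by edgeR, of 51 tested (62 members), and 0.00952% of all genes were called. At an unadjusted p under 0.05 there were 8, and 11.7% of all genes, and DESeq2 called 5 (Cyp2d9, Cyp2d10, Cyp2j13 and Cyp4f15 higher, Cyp2c23 lower) and 2.35% of all genes. Of these, Cyp2d10 is described only through non-transformed kidneys. Ranges of the mice did not overlap for 5 described genes higher and 3 lower in non-transformed kidneys, where 3.91% and 7.25% of all genes did not overlap in those directions. Cyp2j13, Cyp7b1 and Cyp2d9 were highest in mice 1 and 5, both male, while every control was female. Cyp2j13 was at 84.0, 1.75, 1.77 and 189 CPM in mice 1, 3, 4 and 5 and 1.14, 1.33 and 0.533 CPM in controls, with a log2 difference of 6.19 ± 1.82 (SE, adjusted p = 0.268). Cyp7b1, an oxysterol hydroxylase, was at 71.5, 8.20, 6.84 and 179.6 against 6.73, 5.29 and 5.34 CPM, with 3.598 ± 1.16 (SE, adjusted p = 0.303). Cyp2d9, a male-enriched steroid hydroxylase of liver and kidney, was at 294, 119, 70.2 and 227 against 46.8, 29.8 and 41.4 CPM, with 2.22 ± 0.48 (SE, adjusted p = 0.189). With sex as a term the log2 difference of Cyp2j13 was 0.82, that of Cyp7b1 0.38 and that of Cyp2d9 1.26.

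Within the kidney tumours the same mice were highest for these 3 genes. Cyp7b1 was at 15.8 and 370.1 CPM in the tumours of mice 1 and 5 and at 2.66 to 6.997 CPM in the 4 females. Cyp2j13 was at 23.0 and 78.4 CPM against at most 1.18 CPM. Cyp2d9 was at 39.1, 0.854, 0.631, 19.4, 247.5 and 0.273 CPM in the tumours of mice 1 to 6, and its level in the non-transformed kidneys of the females, mice 3 and 4, also lay above every control. With these samples sex and fusion genotype cannot be told apart among the males, since no control was male. Cyp2c23 was the described gene with the smallest p here: 60.9, 74.8, 62.7 and 57.0 CPM in non-transformed kidneys against 128, 108 and 107 CPM in controls, without overlap, a log2 difference of -0.81 ± 0.11 (SE, adjusted p = 0.173). Non-transformed kidney of mouse 5 stood apart for members typical of liver, at 8.02 CPM of Cyp3a11, 5.51 of Cyp2c39, 2.52 of Cyp2c67 and 2.23 of Cyp2c70 (the last 3 chosen after their values were seen). In that library 8 hepatocyte markers (Alb, Apoa1, Ttr and others) summed to 694 CPM, against 506, 279 and 248.26 CPM in mice 1, 3 and 4 and 176 to 245 CPM in controls, and their part in these levels was not tested.

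P450 genes summed to 642 ± 181 CPM (SD, n = 4) in retro-orbital tumours, from 466 to 883, with Cyp27a1 highest per kilobase at 74.8 CPM per kb. Of 48 described genes tested (55 members), 6 were called against kidney tumours, 2 higher and 4 lower, where 17.7% of all genes were called (8.26% higher, 9.45% lower). Cyp2s1, a P450 of surface epithelia outside the liver, was at 12.2, 14.4, 8.69 and 15.8 CPM in mice 2, 3, 5 and 6 and 2.02 to 7.59 CPM in kidney tumours, with a log2 fold change of 1.42 ± 0.34 (SE, adjusted p = 0.0179). Cyp46a1, which hydroxylates cholesterol in neurons, was at 5.37, 9.44, 3.89 and 6.58 CPM against 1.07 to 3.27 CPM, with 1.48 ± 0.38 (SE, adjusted p = 0.0255). Both were higher in every retro-orbital than in any kidney tumour mouse, where 8.33% of all genes were higher without overlap.

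The 4 genes that were lower belong to families 2 and 4. Cyp2a5 was at 4.81, 1.12, 108 and 4.19 CPM in the retro-orbital tumours of mice 2, 3, 5 and 6, with a log2 fold change of -5.20 ± 1.46 (SE, adjusted p = 0.0350). Cyp2j6 was at 28.3, 30.0, 37.8 and 24.0 CPM against 43.8 to 75.5 CPM, with -1.04 ± 0.19 (SE, adjusted p = 0.00632). Cyp4f13 was at 17.0, 20.04, 18.2 and 14.0 CPM against 25.2 to 33.9 CPM, with -0.79 ± 0.14 (SE, adjusted p = 0.00513). Groups did not overlap for these 3 genes, where 7.76% of all genes were lower without overlap, and they overlapped for Cyp2d22, at 11.3, 18.9, 12.2 and 9.24 against 15.9 to 31.5 CPM and -0.96 ± 0.26 (SE, adjusted p = 0.0307). Cyp4f13 was called under all 15 alternatives and Cyp2j6 under 14. When mice were left out in turn, Cyp2s1 was lost without mouse 3 or 6, Cyp46a1 without mouse 2, 3 or 6, Cyp2a5 without mouse 2, 3, 4 or 6 and Cyp2d22 without any mouse but 3. Of the family 4 genes called in kidney tumours, Cyp4v3 was at 24.5, 16.4, 27.6 and 16.1 CPM, with a log2 fold change against kidney tumours of -0.95 ± 0.54 (SE, adjusted p = 0.245), and Cyp4f16 was at 45.2, 46.6, 38.7 and 47.8 CPM, with 0.01 ± 0.25 (SE, adjusted p = 0.979).

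Cyp27a1, the mitochondrial sterol hydroxylase, was at 296, 211, 42.9 and 101 CPM in retro-orbital tumours and 19.7 to 107 CPM in kidney tumours, with a log2 fold change of 1.75 ± 0.57 (SE, adjusted p = 0.0589). The value of mouse 5 lay within the kidney tumour range, and without that mouse the difference was called (adjusted p = 0.00624), as it was with DESeq2 (0.0139). The retro-orbital tumour of mouse 5 stood apart, with 75.8 CPM of Cyp2j5 against 1.47 to 5.03 in the others and 65.4 CPM of Cyp4a10 against 0.807 to 5.18. Proximal tubule markers summed to 1080.1 CPM there and to 119, 225 and 179 CPM in mice 2, 3 and 6. It also held 75.6 CPM of Cyp2f2, a naphthalene-oxidising enzyme of airway cells, and 11.2 CPM of Cyp2b10, which the other 3 held at most at 0.653 and 0.0520 CPM (both chosen after their values were seen). Cyp2e1 and Cyp2j5 did not pass against kidney tumours in edgeR, at -5.29 ± 1.68 (SE, adjusted p = 0.0540) and -3.89 ± 1.58 (SE, adjusted p = 0.116), and DESeq2 called both lower (adjusted p = 9.72e-05 and 0.00672). With the mouse as a replicate block over the 4 mice with both tumours, 5 described genes were called (Cyp4f18 higher; Cyp1b1, Cyp2c23, Cyp2j5 and Cyp4f13 lower), of which only Cyp4f13 was among the 6, and 13.1% of all genes. Without fusion mouse 2 or fusion mouse 3, 3 described genes were called, and without fusion mouse 6, 2, beside 8.06%, 7.24% and 7.92% of all genes. DESeq2 called 24 (3 higher, 21 lower) and 27.1% of all genes.

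**Figure D4:**
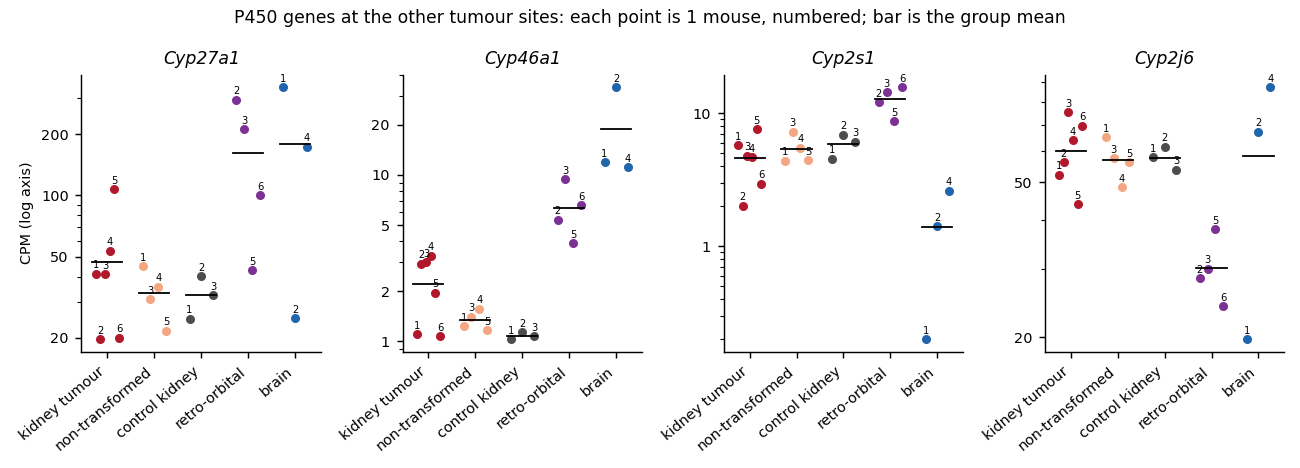
Levels of Cyp27a1, Cyp46a1, Cyp2s1 and Cyp2j6 (CPM, log axis) in each mouse of the 5 adult groups; points are mice, numbered, and bars are group means. Cyp46a1 is at 3.89 to 9.44 CPM in retro-orbital and 11.1 to 33.8 CPM in brain tumours against 1.07 to 3.27 CPM in kidney tumours, and Cyp2j6 is at 24.0 to 37.8 CPM in retro-orbital tumours against 43.8 to 75.5 CPM in kidney tumours.

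Brain tumours gave 611 ± 124 CPM of P450 genes (SD, n = 3), and Cyp27a1 again led per kilobase, at 82.7 CPM per kb, with 340.3, 25.01 and 174 CPM in mice 1, 2 and 4. Against kidney tumours, 3 of 56 described genes (68 members) were called, Cyp46a1 higher and Cyp2a5 and Cyp3a11 lower, where 8.74% of all genes were called (4.54% higher, 4.2% lower). Ranges did not overlap for 1 described gene higher and 10 lower, where 5.36% and 9.79% of all genes did not overlap in those directions. At an unadjusted p under 0.05 in edgeR there were 31 of the 56 described genes and 28.5% of all genes. Cyp46a1 was at 11.9, 33.8 and 11.1 CPM, above every kidney tumour mouse, with a log2 fold change of 3.19 ± 0.50 (SE, adjusted p = 0.0115). Cyp2a5 was at 13.5, 47.0 and 111 CPM, with -4.17 ± 1.03 (SE, adjusted p = 0.0402). Cyp3a11 had 0 counts in all 3 brain tumours and 84 in the kidney tumours together, which makes it at least 8.40-fold lower against a floor of 3 counts over the group (counting error only). Cyp1a1, under 1 CPM in every group, was called lower too.

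Mice differed widely within this group. Cyp27a1 was low in mouse 2 only, and its log2 fold change of 2.02 ± 0.71 (SE, adjusted p = 0.103) did not pass. Mouse 2 was highest for Cyp4x1, a P450 of brain, at 0, 3.62 and 0.136 CPM in mice 1, 2 and 4, and for Cyp2j12, at 0, 4.82 and 0.204 CPM. Neither passed in edgeR, at 6.21 ± 1.74 (SE, adjusted p = 0.0567) and 5.02 ± 1.71 (SE, adjusted p = 0.0934), and DESeq2 called both higher, which is no support since both reached 1 CPM only in brain tumours, and Cyp27a1 as well (adjusted p = 0.0106, 0.0201 and 0.0384). The sum of 8 neural markers (Snap25, Mbp, Gfap and others) was 122, 1515 and 455 CPM in mice 1, 2 and 4 and 27.2 to 107 CPM in kidney tumours, highest in the same mouse, and its part in these levels was not tested. Without fusion mouse 2 the rise of Cyp46a1 was 2.55 on the log2 scale (adjusted p = 0.0565), and no described gene and 1.26% of all genes were called. Cyp2a5 was called with mouse 5 left out and lost without any of the other 5 mice, Cyp3a11 was no longer past the threshold without mouse 1 or 2 and was not tested without mouse 3 or 6, where it did not pass the filter on low counts, and 1 described gene was called without fusion mouse 1 or fusion mouse 3, beside 2.3% and 4.2% of all genes. Cyp27b1, which activates vitamin D in the proximal tubule, was at 60.1, 0.138 and 0.252 CPM, high in mouse 1 alone. With the mouse as a replicate block over the 3 mice with both tumours, 0 described genes and 0% of all genes were called, with 8 described genes and 13.1% of all genes at an unadjusted p under 0.05. The same mice without the block gave 1 (Cyp2e1 lower) and 0.179% of all genes. DESeq2 called 28 (5 higher, 23 lower) and 21.9% of all genes, and the joint fit of the adult groups 24 (3 higher, 21 lower) and 25.1%.

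Between brain and retro-orbital tumours edgeR called 0 of 46 described genes tested (50 members), where 1.73% of all genes were called (0.395% higher, 1.34% lower). Ranges did not overlap for 1 described gene higher and 2 lower in brain tumours, where 7.19% and 11.3% of all genes did not overlap. At an unadjusted p under 0.05 there were 4 described genes and 21.5% of all genes. DESeq2 called 2, Cyp46a1 higher and Cyp2s1 lower in brain tumours, and 14.7% of all genes. Cyp2s1 was at 0.199, 1.41 and 2.61 CPM in brain tumours, below every retro-orbital tumour, with a log2 difference of -3.16 ± 0.80 (SE, adjusted p = 0.0897). Cyp46a1 was higher in each brain than in each retro-orbital tumour, with 1.63 ± 0.50 (SE, adjusted p = 0.126). Cyp20a1 was lower in each, with -0.48 ± 0.17 (SE, adjusted p = 0.173). The joint fit of the adult groups called 5 described genes and 13.1% of all genes, and 3 were called without fusion mouse 1 (Cyp2j6 and Cyp2j12 higher, Cyp2s1 lower) and 1 without fusion mouse 4 (Cyp4f18 lower), beside 5.97% and 4.79% of all genes. Cyp2j12, also called higher in the joint fit, is described only through brain tumours, so its calls are no support.

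Per kilobase, Cyp2c68 had the highest group mean in control fetal kidneys at 70.4 CPM per kb and Cyp20a1 in dysmorphic ones at 25.5, while Cyp4a10 was at 1.17 and 0.855. No described gene was called between dysmorphic and control fetal kidneys by edgeR, of 59 tested (65 members), where 2.67% of all genes were called (2.4% higher, 0.269% lower). Ranges did not overlap for 4 described genes higher and 1 lower in dysmorphic kidneys, where 10.6% and 3.93% of all genes did not overlap. At an unadjusted p under 0.05 there were 11 described genes and 20.3% of all genes. DESeq2 called 6 (Cyp4f39, Cyp26b1 and Cyp27a1 higher, and Cyp27b1, Cyp2j11 and Cyp4a31 lower) and 12% of all genes, so neither share of the 59 was above that of all genes. The median log2 difference was -0.70 over the described genes (-0.47 without control fetus 3) and -0.04 over all genes. The described genes include 5 that reached 1 CPM only in control fetal kidneys, so this median is no support for a difference. Without dysmorphic fetus 5, edgeR called 2 described genes, Cyp2j6 and Cyp2u1, both lower, of 57 tested, and 5.12% of all genes.

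Cyp27b1 was at 0.532, 0.751, 0.593, 0.613 and 0.478 CPM in dysmorphic fetuses 1 to 5 and 6.35, 3.38 and 0.223 CPM in control fetuses 1 to 3, with a log2 difference of -2.53 ± 0.76 (SE, adjusted p = 0.119). Cyp27a1 was at 8.05, 13.2, 5.47, 5.41 and 4.63 against 2.11, 2.72 and 3.16 CPM, without overlap, with 1.42 ± 0.39 (SE, adjusted p = 0.0982). Cyp26b1, which degrades retinoic acid, was at 7.15, 2.90, 6.34, 11.6 and 4.99 against 3.00, 1.28 and 0.770 CPM, with 1.92 ± 0.58 (SE, adjusted p = 0.116). For Cyp27b1, control fetuses 1 and 2 lay above every dysmorphic fetus and control fetus 3 below every one. For Cyp26b1 the groups overlapped at control fetus 1 and dysmorphic fetus 2.

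The control fetuses did not form a uniform group. Dysmorphic fetuses 4 and 5 and control fetus 3 carry another title prefix than the rest, whose meaning was not given, and with that prefix as a term edgeR again called 0 described genes and 1.8% of all genes. Cyp4a31 was at 54.4, 18.5 and 0.207 CPM in control fetuses 1 to 3 and 0.0824 to 3.30 CPM in dysmorphic fetuses, with a log2 difference of -4.42 ± 1.496 (SE, adjusted p = 0.152). The 10 proximal tubule markers summed to 1377, 1128 and 1309.9 CPM in control fetuses 1 to 3 and 43.8 to 835 CPM in dysmorphic fetuses, and 0 of the 10 were at 0 in any fetus. Their makeup differed: in control fetuses 1 to 3 Slc34a1, a phosphate transporter of the proximal tubule, was at 66.1, 23.1 and 1.19 CPM, Slc22a6, an organic anion transporter, at 22.1, 3.88 and 0.108, Lrp2 at 895, 374 and 68.6 and Cubn at 344, 702 and 1234. Cyp2c68 was at 0.0949, 183 and 181 CPM in the controls and 0.125, 9.09, 5.19, 0.542 and 107 CPM in dysmorphic fetuses 1 to 5, with a log2 difference of -2.37 ± 2.05 (SE, adjusted p = 0.563), so control fetus 1 lay at the lowest end and dysmorphic fetus 5 near the other controls. Cyp3a13, a Cyp3a gene of the intestine, was at 0.166, 54.4 and 52.3 and 0.375, 7.32, 1.55, 0.702 and 57.6 CPM. Cyp2j6 was at 31.5, 127 and 113 and 19.2, 26.5, 18.6, 14.8 and 89.2 CPM, and Cyp4f16 at 17.2, 69.2 and 59.0 and 14.1, 16.0, 10.8, 14.5 and 38.2 CPM. For all 4 genes control fetuses 2 and 3 and dysmorphic fetus 5 were the 3 highest, while control fetus 1 lay below every dysmorphic fetus for Cyp2c68 and Cyp3a13 and above dysmorphic fetuses 1 to 4 for Cyp2j6 and Cyp4f16. Intestinal epithelium markers, a list chosen after the values were seen, summed to 16.3, 2042 and 2915 CPM in control fetuses 1 to 3 and 4.89, 56.6, 29.5, 5.52 and 1960.0 CPM in dysmorphic fetuses 1 to 5, and their part in these P450 levels was not tested. Hepatocyte markers summed to 31.4 to 660 CPM in control and 12.6 to 421 CPM in dysmorphic fetuses, and their part was not tested either.

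**Figure D5:**
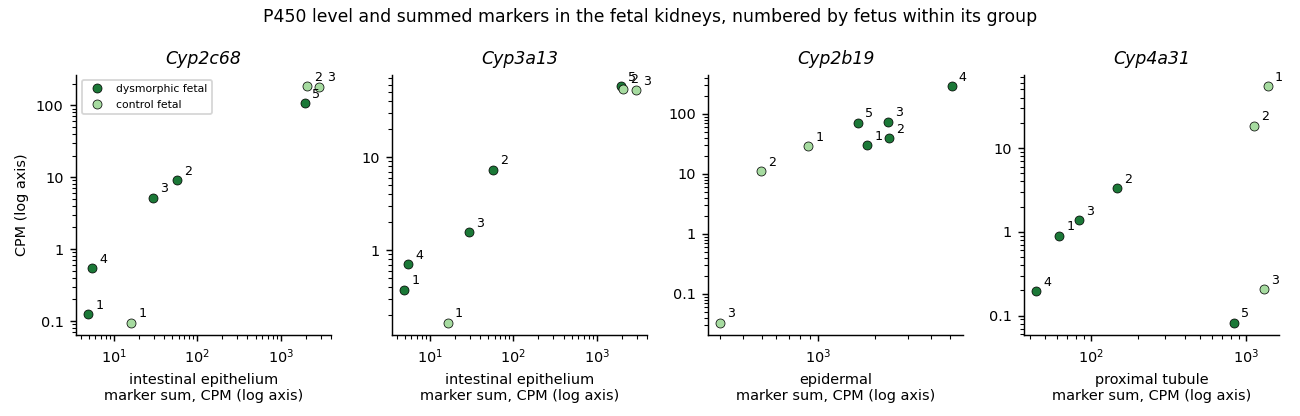
Level of Cyp2c68, Cyp3a13, Cyp2b19 and Cyp4a31 against the sum of a marker list (both CPM, log axes) in the fetal kidneys; each point is 1 fetus, numbered within its group. Cyp2c68 and Cyp3a13 are highest in control fetuses 2 and 3 and dysmorphic fetus 5, which have intestinal marker sums of 2042, 2915 and 1960 CPM, while Cyp2b19 is lowest in control fetus 3.

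Cyp4f39 and Cyp2b19, both known from skin, did not pass the test between the fetal groups. Cyp4f39 was at 1.71, 6.06, 2.90, 7.17 and 2.07 CPM against 1.11, 0.588 and 0.298 CPM, without overlap, with a log2 difference of 2.54 ± 0.67 (SE, adjusted p = 0.0870). It reached a mean of 1 CPM only in dysmorphic fetal kidneys and is described because of that group, so neither the gap nor its DESeq2 call is support. Cyp2b19, an arachidonic acid epoxygenase of keratinocytes, was at 30.1, 39.2, 74.6, 288 and 71.6 against 28.9, 11.1 and 0.0331 CPM (values chosen after they were seen), with 2.87 ± 1.53 (SE, adjusted p = 0.342). Epidermal markers, a list also chosen after the values were seen, summed to 1631 to 5119 CPM in dysmorphic and 300.3 to 882 CPM in control fetuses, and skeletal muscle markers to 2552 to 5861 and 1080.0 to 1293 CPM. Dysmorphic fetus 2 held 36.8 CPM of Cyp2f2 and 28.8 CPM of Cyp2c65, where the other dysmorphic fetuses held at most 1.53 and 4.74 (both chosen after their values were seen), and a stomach marker sum of 86.6 CPM against at most 0.207 in the other dysmorphic fetuses. Control fetuses 1 to 3 held 0.554, 0.223 and 0.414 CPM of Cyp2f2 and 0.0158, 29.3 and 11.7 CPM of Cyp2c65, with stomach marker sums of at most 0.332 CPM, so Cyp2c65 was as high in control fetus 2. The part of these tissues in the P450 levels was not tested. Of the genes that rose in adult kidney tumours, Cyp4v3 was at 1.93, 6.75, 2.62, 1.58 and 2.05 CPM in dysmorphic and 2.38, 2.17 and 2.14 CPM in control fetuses.

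Genes that serve the P450 enzymes were examined as lists, whose counts can be read against the shares of all genes called: 12.5% higher and 6.51% lower in kidney tumours against controls, 12.1% and 5.02% against non-transformed kidneys, 8.26% and 9.45% in retro-orbital and 4.54% and 4.2% in brain against kidney tumours, and 2.4% and 0.269% in dysmorphic against control fetal kidneys. Of 12 redox and haem-handling genes tested, 1 rose and 2 fell in kidney tumours against controls: Hmox1, which degrades haem, rose by 3.28 ± 0.39 (SE, adjusted p = 9.70e-04) on the log2 scale, and Por, the reductase that feeds electrons to P450 enzymes, fell, with a log2 fold change of -0.70 ± 0.12 (SE, adjusted p = 0.00633), as did Blvra. Por was at 129 ± 15.2 CPM (SD, n = 6) in kidney tumours and 213 ± 15.2 CPM (SD, n = 3) in controls. In retro-orbital tumours 6 of 12 were lower than in kidney tumours and none higher, with log2 fold changes of -1.41 ± 0.12 (SE, adjusted p = 8.01e-04) for Por and -1.43 ± 0.18 (SE, adjusted p = 0.00147) for Cyb5b. In brain tumours 3 of 12 were lower. Of the 8 genes of haem synthesis, 5 were lower in retro-orbital than in kidney tumours, among them Alas1, its first enzyme, with -1.04 ± 0.20 (SE, adjusted p = 0.00694). In this list 0 were called between kidney tumours and controls and 1 fell against non-transformed kidneys (Alad).

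Of 19 regulators of P450 genes, 3 rose and 4 fell in kidney tumours against controls, where 12.5% of all genes rose and 6.51% fell. Pparg, a receptor for fatty acids, rose by 3.46 ± 0.70 (SE, adjusted p = 0.0119). Ppara, the receptor known to induce Cyp4a genes, fell, with -1.87 ± 0.28 (SE, adjusted p = 0.00302), from 77.7, 97.1 and 68.4 CPM in controls to 15.9 to 38.8 CPM in tumours. Hnf4a was not called. In retro-orbital tumours 9 of 18 regulators were lower than in kidney tumours and in brain tumours 8 of 19, none higher. The log2 fold change of Vdr, the vitamin D receptor, was -3.24 ± 0.90 (SE, adjusted p = 0.0331) in retro-orbital and -4.56 ± 0.99 (SE, adjusted p = 0.0282) in brain tumours. Proximal tubule markers summed to 119 to 1080.1 CPM in retro-orbital and 278 to 735 CPM in brain tumours, and their part in these levels was not tested.

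Of 12 eicosanoid genes, 3 rose and 2 fell in kidney tumours against controls, beside the same 12.5% and 6.51% of all genes. Pla2g4a, which releases arachidonic acid, rose by 2.46 ± 0.41 (SE, adjusted p = 0.00522), Ephx1, an epoxide hydrolase, by 1.70 ± 0.46 (SE, adjusted p = 0.0330) and Ptgs2, a cyclooxygenase, by 1.78 ± 0.43 (SE, adjusted p = 0.0224), while Hpgd and Ptgs1 fell, with -1.23 ± 0.30 (SE, adjusted p = 0.0222) and -1.10 ± 0.31 (SE, adjusted p = 0.0362). Of 8 vitamin D handling genes, 1 fell (Dab2). Of 13 retinoid genes, 2 rose, among them Crabp2, which carries retinoic acid in the cell, by 7.75 ± 1.05 (SE, adjusted p = 0.00196). Of 11 sterol and steroid genes, 3 rose, Soat1 by 3.19 ± 0.40 (SE, adjusted p = 0.00123), Npc1 by 2.11 ± 0.25 (SE, adjusted p = 9.46e-04) and Hsd3b7, and Hsd17b4 fell. Against non-transformed kidneys the counts were 1 higher and 2 lower for redox genes, 2 and 5 for regulators, 3 and 0 for eicosanoid genes, 0 and 1 for vitamin D genes, 0 and 0 for retinoid genes and 3 and 1 for sterol genes. Retro-orbital against kidney tumours gave 0 higher and 3 lower eicosanoid genes, 0 and 2 vitamin D genes, 2 and 2 retinoid genes and 0 and 3 sterol genes. Brain against kidney tumours gave 0 and 1, 0 and 3, 1 and 2, and 1 and 3 in the same order. Between non-transformed and control kidneys, and between brain and retro-orbital tumours, edgeR called 0 genes of these 7 lists. In fetal kidneys it called Ephx1 and Ptgis higher and Rdh10 lower in dysmorphic ones, with log2 fold changes of 1.41 ± 0.23 (SE, adjusted p = 0.0350), 0.84 ± 0.18 (SE, adjusted p = 0.0497) and -1.20 ± 0.23 (SE, adjusted p = 0.0415). With sex as a term 0.022% of all genes were called between the fetal groups. With dysmorphic fetus 1, 3 or 4 or any control fetus left out, 0% of all genes were called, so these calls were lost.

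Markers of other cell types that the tissue could hold were tested the same way. In kidney tumours against control kidneys, beside 12.5% of all genes higher and 6.51% lower, edgeR called 1 of 8 hepatocyte, 1 of 5 adrenal cortex, 4 of 8 fibroblast and mural, 2 of 8 leukocyte, 1 of 7 neural, 1 of 8 epidermal, 1 of 5 intestinal epithelium and 1 of 6 collecting duct and ureter markers higher and 1 of 8 hepatocyte markers lower. In kidney tumours against non-transformed kidneys, beside 12.1% and 5.02% of all genes, edgeR called 3 of 8 fibroblast and mural, 1 of 6 endothelial, 3 of 8 leukocyte, 1 of 7 neural and 1 of 7 epidermal markers higher and 1 of 8 hepatocyte markers lower. In retro-orbital tumours against kidney tumours, beside 8.26% and 9.45% of all genes, edgeR called 1 of 5 adrenal cortex, 3 of 8 fibroblast and mural and 3 of 6 endothelial markers higher and 2 of 8 hepatocyte, 3 of 5 adrenal cortex, 1 of 7 epidermal, 1 of 5 intestinal epithelium and 1 of 4 collecting duct and ureter markers lower. In brain tumours against kidney tumours, beside 4.54% and 4.2% of all genes, edgeR called 2 of 8 neural markers higher and 2 of 8 hepatocyte, 1 of 5 adrenal cortex, 3 of 8 fibroblast and mural, 2 of 6 endothelial, 1 of 8 epidermal and 1 of 5 intestinal epithelium markers lower. In brain tumours against retro-orbital tumours, beside 0.395% and 1.34% of all genes, edgeR called 4 of 8 fibroblast and mural, 4 of 6 endothelial and 1 of 8 leukocyte markers lower. In dysmorphic against control fetal kidneys, beside 2.4% and 0.269% of all genes, edgeR called 2 of 8 fibroblast and mural, 1 of 8 leukocyte, 5 of 6 skeletal muscle and 1 of 8 epidermal markers higher. These fetal calls were lost with dysmorphic fetus 1, 3 or 4 or any control fetus left out, where 0% of all genes were called. Between non-transformed and control kidneys, where 0.00952% of all genes were called, edgeR called 0 markers of these lists. In kidney tumours against controls 0 of 10 proximal tubule, 0 of 6 endothelial, 0 of 6 skeletal muscle and 0 of 2 stomach markers were called, and 0 of 10 proximal tubule markers were called in each other comparison. In dysmorphic against control fetal kidneys 0 of 8 intestinal epithelium, 0 of 8 hepatocyte and 0 of 6 collecting duct and ureter markers were called.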

How the data were processed

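Total RNA of formalin-fixed, paraffin-embedded mouse tissue was sequenced by the submitters with a stranded kit and no ribosomal depletion. The authors deposited raw counts per gene for each library. Per the submitters' processing notes STAR 2.5.2a, Bowtie2, FastQC and MultiQC were used with GRCm38; the counter, annotation and strand setting were not given in the sources used here. Even values made up 79.04% to 84.33% of counts from 1 to 20, and a fit with counts halved was an alternative. Gene names, exon lengths and shared 50-base stretches came from GENCODE M21 (53274 of 53379 genes matched).

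Libraries of the same animal and group were summed. Levels are CPM with TMM factors. For each comparison only its own samples entered edgeR 4.0.16 (R 4.3.3), with the quasi-likelihood test, filterByExpr and Benjamini-Hochberg adjustment over all genes, with a threshold of 0.05. Standard errors were derived from the log2 value and the test's F statistic. DESeq2 1.42.0 and limma 3.58.1 served as alternatives, beside RLE factors, no filter beyond 1 count, a joint fit, sex, the mouse as a block, the title prefix of fetal samples and each animal left out. The scripts were tested on simulated data. P-values measure the spread between these animals. Sequencing reads carry no molecular identifiers, so intervals and floors cover counting error only.

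Kidney tumour, non-transformed kidney and other tumour samples with the same number came from the same mouse, so the numbers pair them. Deviations of paired samples from their group means correlated at -0.06 to 0.16 for kidney tumours and non-transformed kidneys, 0.25 to 0.33 for retro-orbital and kidney tumours and -0.07 to -0.06 for brain and kidney tumours. The main fits leave the block out.

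Members and gene lists were chosen with earlier results of these data known. Values of every animal or their range were given for the 5 members of each family block with the highest group mean and for up to 6 called members in each direction of a comparison, and for other members where stated or where a result turned on them. Those others were chosen after their values were seen. Epidermal, intestinal, stomach and collecting duct lists were also chosen after values were seen. The values of some genes of the lists are not reported here.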

Additional observations from a re-analysis of the deposited data

Results flagged for a closer look

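In groups of 4 to 6 animals, 26 of 100 sets of values of described genes had 1 animal far from the others by Dixon's test. That test marks about 1 of 20 sets by chance where sets are independent and normally distributed. These sets share animals and hold CPM values, and whether 26 exceeds chance was not tested.

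In the retro-orbital tumour of mouse 5 the level of Cyp2a5 was 108 CPM against 1.12 to 4.81 in the other 3 mice, that of Cyp2j5 75.8 against 1.47 to 5.03, and that of Cyp4a10 65.4 against 0.807 to 5.18. The same tumour stood apart for Cyp4a14 at 35.9 CPM against 0.338 to 3.32, Cyp4a31 at 31.5 against 0.694 to 2.60, Cyp2d26 at 28.7 against 0.711 to 2.49 and Cyp2e1 at 16.8 against 1.28 to 2.73. It also did for Cyp24a1 at 4.06 CPM against 0.191 to 0.653, Cyp2a4 at 10.6 against 0.338 to 0.632 and Cyp4b1 at 7.96 against 0.738 to 1.05. The retro-orbital tumour of mouse 2 held 20.7 CPM of Cyp27b1 against 2.82 to 5.63.

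Among kidney tumours, mouse 5 held 370.1 CPM of Cyp7b1 against 2.66 to 15.8 in the other 5 mice, 880.1 of Cyp2a4 against 1.43 to 57.2, 276 of Cyp4b1 against 2.31 to 57.9 and 8.20 of Cyp27b1 against 0.636 to 3.45. Mouse 4 held 67.3 CPM of Cyp24a1 against 0.496 to 16.0, 289 of Cyp2d26 against 1.65 to 83.3 and 299 of Cyp4a14 against 0.774 to 112. Mouse 2 held 2958 CPM of Cyp2a5 against 167 to 1113. The non-transformed kidney of mouse 5 held 8.02 CPM of Cyp3a11 against 0.0751 to 0.424.

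Dysmorphic fetus 5 held 57.6 CPM of Cyp3a13 against 0.375 to 7.32 in the other 4, 89.2 of Cyp2j6 against 14.8 to 26.5, 17.0 of Cyp4f13 against 7.31 to 9.26 and 38.2 of Cyp4f16 against 10.8 to 16.0. Dysmorphic fetus 2 held 12.0 CPM of Cyp2s1 against 0.782 to 3.31 and 6.75 of Cyp4v3 against 1.58 to 2.62.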

How the results depend on the processing

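The number of described genes, 62, was 69 at a minimum mean of 0.5 CPM and 54 at 2 CPM. The share of all genes called, which moved with these settings too, stands in brackets. Described genes called in kidney tumours against controls were 5 (19%), and 17 with DESeq2 (30%), 8 with sex as a term (25.9%) and 27 with libraries and the mouse as a random block (35.3%), and leaving out 1 mouse gave 0 to 10 (4.78% to 25.1%). Against non-transformed kidneys they were 8 (17.1%), and 27 with the random block (30%), 1 with the mouse as a fixed replicate block (4.12%) and 1 in the same mice without the block (8.04%), and leaving out 1 mouse gave 1 to 8 (5.59% to 17%). Non-transformed against control kidneys gave 0 (0.00952%), 5 with DESeq2 (2.35%), and 0 with any mouse left out (0% to 0.0462%). Retro-orbital against kidney tumours gave 6 (17.7%), and 24 with DESeq2 (27.1%), 14 in the joint fit (18.3%), 12 with sex as a term (18.9%) and 11 with the random block (26.5%), and leaving out 1 mouse gave 2 to 8 (7.24% to 19.5%). With the replicate block it gave 5 (13.1%), and 4 in the same mice without it (14.3%). Brain against kidney tumours gave 3 (8.74%), and 28 with DESeq2 (21.9%), 24 in the joint fit (25.1%), 6 with the random block (16.8%), 0 with the replicate block (0%) and 1 in the same mice without it (0.179%), and leaving out 1 mouse gave 0 to 3 (1.26% to 6.36%). Brain against retro-orbital tumours gave 0 (1.73%), 2 with DESeq2 (14.7%), 5 in the joint fit (13.1%) and 0 to 3 with 1 mouse left out (0% to 5.97%). The fetal comparison gave 0 (2.67%), 6 with DESeq2 (12%), 0 with sex as a term (0.022%) and 0 to 2 with 1 fetus left out (0% to 5.58%). Causes of these shifts were not tested. The fits restricted to mice with both tissues and no block were chosen after seeing the data. Of the values of single genes under alternatives, 650 stayed on their side of the threshold, 103 were no longer past it, 50 passed it newly and 0 changed direction. No paired analysis was possible for brain against retro-orbital tumours because 1 mouse gave both, and the random block there was not run because the correlation within mice could not be estimated. Members with few counts, such as Cyp3a11 with 8 to 36 per kidney tumour mouse, are limited by depth.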
